A study of Mus musculus with 3 samples.

Results

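Id1, Id3, Nr1h3, Spic, Zeb2, Maf, Irf8 and Spi1 encode transcription regulators that build or maintain the Kupffer cell, the resident macrophage of the liver. They were chosen by name as 8 of the 28692 genes in the gene list, and all 8 were found. Their levels were read in single sorted liver cells from 3 male mice aged 8 weeks. One library came from a mouse on normal chow. The ethanol mice drank a liquid diet of the Lieber-DeCarli type that contained 5% ethanol, 1 for 3 days and 1 for 10 days, and each gave 1 library. The chow mouse did not receive a liquid control diet, so liquid feeding and ethanol cannot be told apart. Each diet had 1 mouse and 1 library, so a difference between diets and a difference between mice cannot be told apart either, and no test between diets was possible. The strain was not given in the sources used here. Cells were freed by collagenase perfusion, sorted as live F4/80-high and CD11b-intermediate cells, and sequenced with the 10x Genomics 3' v2 chemistry.

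PU.1, the protein of Spi1, opens macrophage enhancers, and the proteins of Irf8, Maf and Zeb2 act with it or beside it in many macrophages. Kupffer identity is laid over that base. In mouse, signals from the sinusoid, among them Notch ligands and ligands of the BMP and TGF-beta family, induce Nr1h3 and the ID genes in cells that settle there, and haem released from red cells induces Spic. Nr1h3 encodes LXR-alpha, a receptor for oxidised cholesterol that Kupffer cells need to keep their identity.

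The promoters shown are those of Nr1h3, which had the highest ratio of 10 days over chow, Zeb2, which had the highest ratio of 3 days over chow, and Spic, which had the lowest ratio of 10 days over chow. RefSeq promoters were at hand for 5 of the 8 genes. They are read 5' to 3' on the gene's strand from GRCm38.p6, start 250 bases before the RNA start that the RefSeq table lists first for the gene, and leave out bases that GENCODE vM21 marks as exon. Capitals mark matches to short motifs searched on both strands. CACCTG is an E-box bound by ZEB proteins, GGCGCC a site of BMP-activated SMAD proteins, GAGGAA the PU.1 core and TGCTGA a MAF half-site. The Nr1h3 stretch is chr2:91195152-91195366 on the minus strand, Zeb2's is chr2:45117443-45117692 on the minus strand, and Spic's is chr10:88683024-88683273 on the minus strand. The Nr1h3 and Spic stretches lie inside the GENCODE gene spans given with the levels, so they precede an internal start and not the outermost start of those genes.

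Nr1h3: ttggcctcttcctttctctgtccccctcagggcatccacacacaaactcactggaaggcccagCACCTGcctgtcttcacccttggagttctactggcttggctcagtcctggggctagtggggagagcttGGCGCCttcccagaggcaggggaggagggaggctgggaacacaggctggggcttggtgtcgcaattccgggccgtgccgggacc
Zeb2: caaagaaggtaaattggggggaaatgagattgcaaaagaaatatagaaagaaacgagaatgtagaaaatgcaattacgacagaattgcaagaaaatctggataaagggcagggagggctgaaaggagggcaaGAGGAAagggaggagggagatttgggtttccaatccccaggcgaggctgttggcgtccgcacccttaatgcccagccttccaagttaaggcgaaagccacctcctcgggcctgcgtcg
Spic: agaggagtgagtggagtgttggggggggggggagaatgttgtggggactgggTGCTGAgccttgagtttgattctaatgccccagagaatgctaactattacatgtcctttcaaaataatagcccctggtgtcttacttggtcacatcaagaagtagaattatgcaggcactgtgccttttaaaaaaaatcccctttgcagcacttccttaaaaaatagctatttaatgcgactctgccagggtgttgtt

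These letters are common. Of 27025 mouse promoter windows of 250 bases, 17.1% held CACCTG, 9.54% held GGCGCC, 23.1% held GAGGAA and 15.8% held TGCTGA. Counted from these RefSeq starts, the matches lay 187 and 119 bases before that of Nr1h3, 118 bases before that of Zeb2 and 198 bases before that of Spic. The windows of Irf8 and of the 3 genes printed held no match to the nuclear receptor half-site AGGTCA, which 13.8% of promoters held. They held none to the joint PU.1 and IRF site, GGAA and GAAA with 2 bases between, which 2.38% held. A match describes the letters and is not a measurement of binding.

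The libraries held 21650747 (chow), 21471782 (3 days) and 16538895 (10 days) unique molecular identifiers (UMIs, 1 per captured RNA molecule). Barcodes with at least 1000 UMIs, at least 300 genes and at most 10% mitochondrial UMIs were kept as cells, which left 2767, 4061 and 3014 cells. The study states 3000 to 5000 cells per sample. Median depth was 4552, 3051 and 2982 UMIs per cell, and median mitochondrial share 5.12%, 5.11% and 6.29%. Clusters were made without the 80 transcription factor genes on fixed lists, these 8 among them. In all, 7 of 15 clusters were Kupffer-like, with 2394, 3597 and 2619 cells, and all 15 listed Kupffer markers were present in them in every library, at a summed 37779, 36913 and 36391 CPM (the scale is given with the levels). T and NK-like, endothelial-like and dendritic-like clusters served for comparison, and 3 clusters that mixed Kupffer markers with T cell, neutrophil or erythroid markers were left unnamed. The libraries shared 13 to 20 cell barcodes in pairs, near the 11.3 to 16.6 that random draws from the barcode list give.

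The 8 genes spanned a wide range of levels in the Kupffer-like cells. Levels are CPM, the UMIs of a gene summed over the cells of a class in a library per 1000000 of all their UMIs (counts per 1000000). Since the chemistry counts RNA 3' ends, CPM were compared between genes without division by length. Of the 80 listed regulators, which include factors of T, B and endothelial cells, 47 averaged at least 10 CPM over the 3 libraries, and Maf ranked highest. Id3 was in place 4, Nr1h3 5, Spi1 6, Zeb2 7, Irf8 14, Spic 25 and Id1 27.

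Spi1, at chr2:91082390-91115756 on the plus strand, encodes PU.1, an ETS factor that macrophages require. Its level in Kupffer-like cells was 627 CPM on chow, 627 CPM at 3 days and 640 CPM at 10 days. The 3 values lay within each other's counting intervals (612 to 641, 613 to 642 and 624 to 658 CPM; exact Poisson, 95%). These intervals, like all others given here, cover counting error only. The ratio was 1.00 (0.969 to 1.03) for 3 days over chow and 1.02 (0.987 to 1.06) for 10 days over chow, and under TMM scaling it was 0.980 and 0.981.

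Irf8, at chr8:120736358-120756694 on the plus strand, encodes an interferon regulatory factor that binds DNA together with PU.1. Its level was 262 CPM on chow, 253 CPM at 3 days and 278 CPM at 10 days. The highest, at 10 days, was 1.06 times (1.01 to 1.12) that on chow, and this direction turned round when the 7 clusters were weighted equally (0.882). The ratio of 3 days over chow was 0.965 (0.917 to 1.02). The listed dendritic markers summed to 221, 269 and 302 CPM in the same Kupffer-like cells on chow, at 3 days and at 10 days, over 14 genes with none at 0 on chow and 1 at 0 in each ethanol library. Their part in the Irf8 values was not tested.

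Maf, at chr8:115682942-115707794 on the minus strand, encodes c-MAF, a leucine zipper factor of mature macrophages. It had 970 CPM on chow, 1217 CPM at 3 days and 1117 CPM at 10 days. Both ethanol libraries were above chow and their intervals (1197 to 1237 and 1095 to 1139 CPM) did not meet that of chow (953 to 989 CPM). The ratio was 1.25 (1.22 to 1.29) for 3 days over chow and 1.15 (1.12 to 1.18) for 10 days over chow. Among cells with 2000 to 4000 UMIs, the ratios were 1.07 and 0.995, so the second of them did not keep its direction in that depth range.

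Zeb2, at chr2:44983632-45117395 on the minus strand, encodes a zinc finger repressor that in mouse keeps macrophages true to their tissue. Its level was 531 CPM on chow, 682 CPM at 3 days and 674 CPM at 10 days. Chow was the lowest library and the ethanol libraries differed by less than their intervals. The ratio of 3 days over chow, 1.29 (1.24 to 1.33), was the highest of the 8 genes in that comparison, and that of 10 days over chow was 1.27 (1.23 to 1.32). At 2000 to 4000 UMIs per cell these were 1.11 and 1.09. The antisense gene Zeb2os shares the locus and had 1583, 1234 and 894 UMIs in the same libraries, summed over all barcodes and not only Kupffer-like cells. Whether counting used the strand was not given in the sources used here, so the Zeb2 values are uncertain to that extent.

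Nr1h3, at chr2:91184061-91202834 on the minus strand, had the highest ratio of 10 days over chow of the 8 genes when all Kupffer-like cells were pooled. It had 558 CPM on chow, 705 CPM at 3 days and 872 CPM at 10 days. The 3 intervals (545 to 572, 690 to 720 and 852 to 892 CPM) were apart, with chow lowest and 10 days highest. The ratio was 1.26 (1.22 to 1.30) for 3 days over chow, 1.56 (1.51 to 1.61) for 10 days over chow and 1.24 (1.20 to 1.28) for 10 days over 3 days. Per cell, with no scaling by depth, it had 2.68 UMIs on chow, 2.33 at 3 days and 2.87 at 10 days, so 3 days stood below chow on that scale.

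Spic, at chr10:88674772-88685015 on the minus strand, encodes SPI-C, an ETS factor induced by haem in iron-handling macrophages. Its level was 110 CPM on chow, 127 CPM at 3 days and 93.1 CPM at 10 days. The 10-day library was the lowest and the 3-day library the highest. Ratios were 1.15 (1.07 to 1.24) for 3 days over chow, 0.846 (0.773 to 0.924) for 10 days over chow and 0.733 (0.672 to 0.799) for 10 days over 3 days. With the clusters weighted equally, the first of these turned to 0.960, while the other ratios stayed under 1, at 0.730 and 0.761.

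Id3, at chr4:136143497-136145755 on the plus strand, encodes a helix-loop-helix protein that cannot bind DNA and blocks E proteins, and that mouse Kupffer cells need for their development. It had 715 CPM on chow, 790 CPM at 3 days and 739 CPM at 10 days. The 3-day library was 1.10 times (1.07 to 1.14) the chow library, and the 10-day library 1.03 times (0.999 to 1.07), a value that was 0.992 under TMM scaling. Id1, a close relative at chr2:152736251-152737410 on the plus strand, was much lower, at 108 CPM on chow, 115 CPM at 3 days and 99.3 CPM at 10 days. Its ratio of 10 days over chow was 0.916 (0.839 to 1.00), and 1.04 when cells with over 5% mitochondrial UMIs were left out. That filter kept 1039 Kupffer-like cells on chow and 348 at 10 days.

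**Figure D1:**
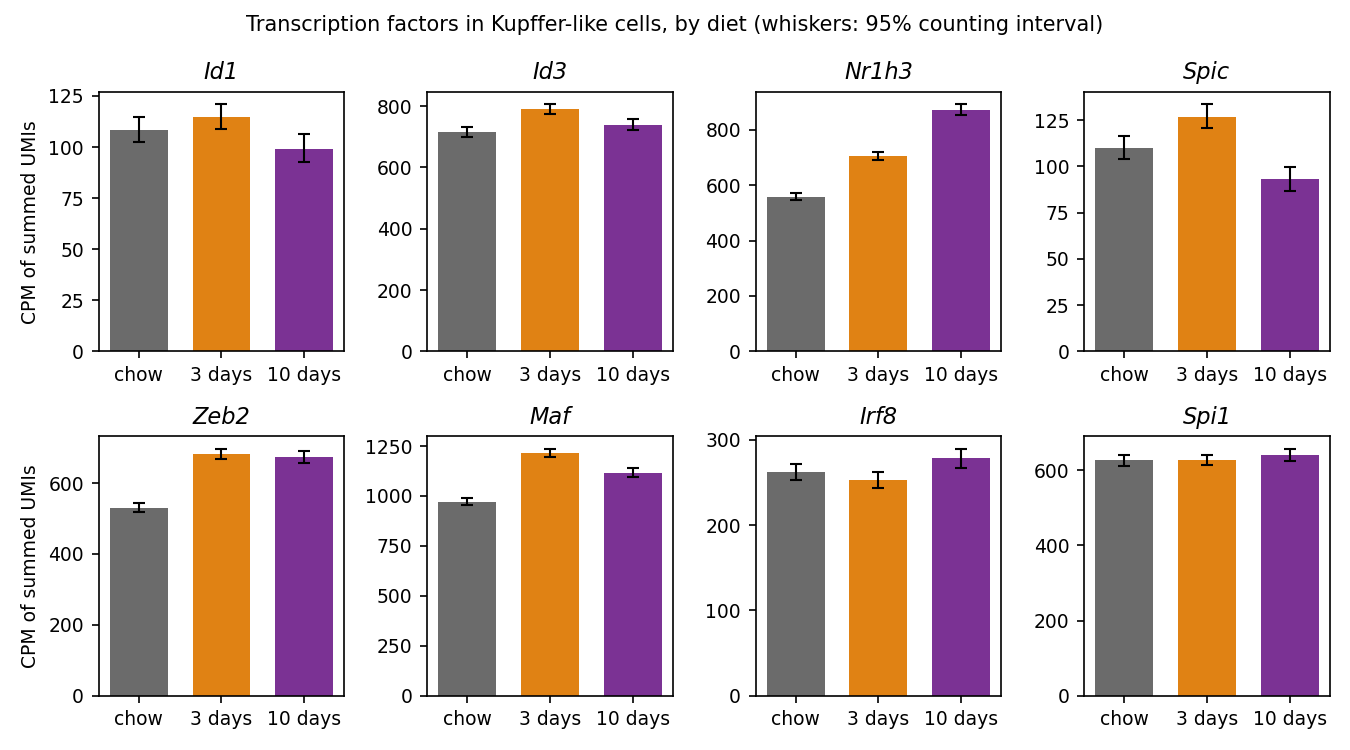
Level of each of the 8 genes in Kupffer-like cells, in CPM of summed UMIs, for chow, 3 days and 10 days of the ethanol diet (1 library each). Whiskers are 95% counting intervals. Nr1h3 steps up across the 3 libraries (558, 705 and 872 CPM), Zeb2 and Maf are lowest on chow, Spic is lowest at 10 days, and Spi1 is level.

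Against a limit of 1.5-fold, 0 of the 8 genes were past it in either direction for 3 days over chow, where 4.66% of 7507 genes with at least 10 CPM were (3.37% higher and 1.29% lower). For 10 days over chow, 1 of 8, Nr1h3, was higher and 0 lower, beside 4.02% and 2.44% of all genes, 6.46% in all. For 10 days over 3 days, 0 of 8 were past it, beside 2.37% higher and 1.96% lower, 4.33% in all. The median log2 ratio of the 8 genes was 0.17 for 3 days over chow, 0.07 for 10 days over chow and -0.06 for 10 days over 3 days, and that of all 7507 genes was 0.04, 0.08 and 0.02. The first and second comparisons share the chow library. Under TMM scaling, the higher share of all calls for 10 days over chow was 44.6%, not 62.3%. With TMM scaling the Nr1h3 ratio of 10 days over chow was 1.498, just under the limit.

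Within the 7 Kupffer-like clusters, Nr1h3, Zeb2 and Id3 were above chow in both ethanol libraries in 7 of 7. The counting interval of the Nr1h3 ratio was above 1 in 4 of 7 clusters for 3 days over chow and in 5 of 7 for 10 days over chow. For Id3 it was above 1 in 3 of 7 and in 0 of 7. For Nr1h3 the ratios within clusters ran between 1.11 and 1.26 (median 1.20) for 3 days over chow and between 1.10 and 1.55 (median 1.23) for 10 days over chow. For Zeb2 they ran between 1.12 and 1.38 and between 1.06 and 1.32. Thus the median within clusters for Nr1h3 at 10 days, 1.23, was below the 1.56 over all Kupffer-like cells. Spic at 10 days was under chow in 6 of 7 clusters, with ratios between 0.556 and 1.10 (median 0.742). Its interval was below 1 in 2 of 7. With clusters weighted equally, the ratio of 10 days over chow was 1.25 for Nr1h3 and 0.730 for Spic. Irf8 at 3 days was under chow in 6 of 7, with ratios between 0.587 and 1.02 and the interval below 1 in 2 of 7. Maf was above chow in 7 of 7 clusters at 3 days (median 1.09) but in 4 of 7 at 10 days. Its 10-day ratios ran between 0.952 and 1.35 (median 1.04), with the interval above 1 in 2 of 7.

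Depth moved with these differences. One cluster of deep cells (number 2, median 5634 UMIs) held 45.3% of the Kupffer-like cells on chow, 17.8% at 3 days and 10.0% at 10 days, and 1 cluster of shallow cells (number 1, median 1914 UMIs and 6.50% mitochondrial UMIs) held 11.9%, 26.9% and 41.3%. A cluster found mostly in 1 library may be that library and not a cell state. Nr1h3 in the shallow cluster was 793, 958 and 1049 CPM on chow, at 3 days and at 10 days, against 546, 660 and 806 CPM in all other Kupffer-like cells. In the deep cluster it was 472, 531 and 645 CPM, against 687, 771 and 917 CPM in the others. Among cells of 2000 to 4000 UMIs, the Nr1h3 ratio was 1.08 for 3 days over chow, 1.30 for 10 days over chow and 1.21 for 10 days over 3 days. The part of depth in the differences was not tested further. Immediate-early genes, which rise when tissue is dissociated, also moved: 20 genes summed to 2252 CPM on chow, 3701 CPM at 3 days and 3939 CPM at 10 days, with 1, 0 and 1 of them at 0, and their part in the values of the 8 genes was not tested.

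**Figure D2:**
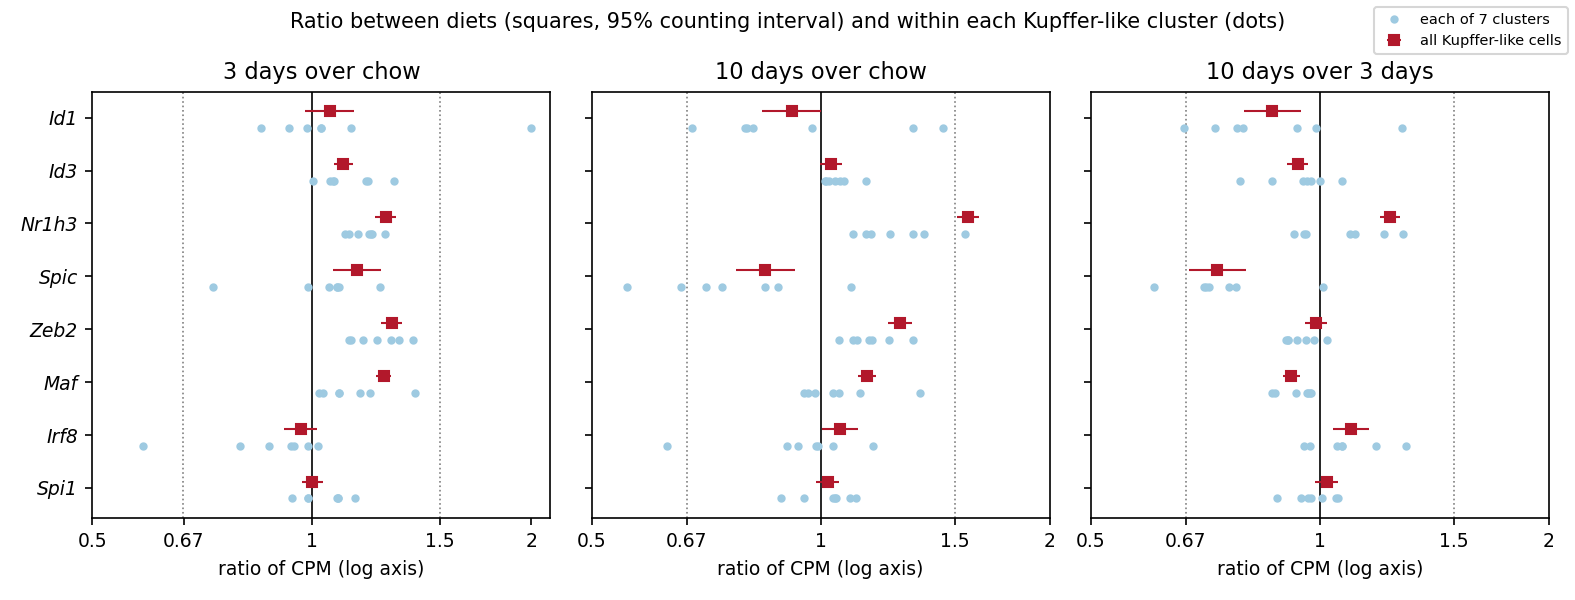
Ratios of CPM between diets on a log axis for the 8 genes, in all Kupffer-like cells (squares with 95% counting intervals) and in each of the 7 clusters (dots). Dotted lines mark 1.5-fold either way. Nr1h3 at 10 days over chow (1.56) is the only square beyond them, and all 7 of its dots lie above 1.

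At equal depth, the share of cells with an Nr1h3 transcript was lowest on chow and highest at 10 days. After each cell was thinned to 1500 UMIs, which left out 112, 316 and 232 shallower Kupffer-like cells, Nr1h3 was seen in 55.0% of cells on chow, 63.2% at 3 days and 71.1% at 10 days. Without thinning these shares were 86.4%, 84.0% and 88.4%. In T and NK-like cells thinned to the same depth, which carry no macrophage program, the Nr1h3 shares were 6.09%, 10.0% and 9.46%. The median depth before thinning was 4584.5, 3034 and 3041 UMIs in Kupffer-like cells and 3538, 2614.5 and 2448 UMIs in T and NK-like cells.

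Maf was seen in 75.6%, 82.0% and 79.1% of thinned Kupffer-like cells on chow, at 3 days and at 10 days. Zeb2 was seen in 53.5%, 64.7% and 61.4%, Spi1 in 59.1%, 60.6% and 59.4%, and Id3 in 61.7%, 66.4% and 63.3%. Irf8 was seen in 32.6%, 31.2% and 34.3%. Spic, in 14.4%, 16.5% and 12.7% of cells, and Id1, in 13.5%, 14.0% and 13.1%, were the sparse members. Spic was nevertheless above its share in T and NK-like cells, which was 0.870% on chow and 0 of 90 and 0 of 148 cells in the ethanol libraries, allowing up to 3.33% and 2.03%. Before thinning, Spic was seen in 35.0%, 29.8% and 23.6% of Kupffer-like cells and Id1 in 31.4%, 24.6% and 23.1%, highest in the chow library, which was the deepest.

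At 1500 UMIs a Kupffer-like cell showed on average 3.65 of the 8 genes on chow, 3.99 at 3 days and 3.94 at 10 days. A cell with none of them made up 0.570%, 0.183% and 0.168%. The variance of UMIs over their mean ran between 1.04 and 1.28 for the 8 genes in the 3 libraries, where 1 is what random sampling of equal cells gives. Spi1 was nearest to 1, at 1.04, 1.06 and 1.05.

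**Figure D3:**
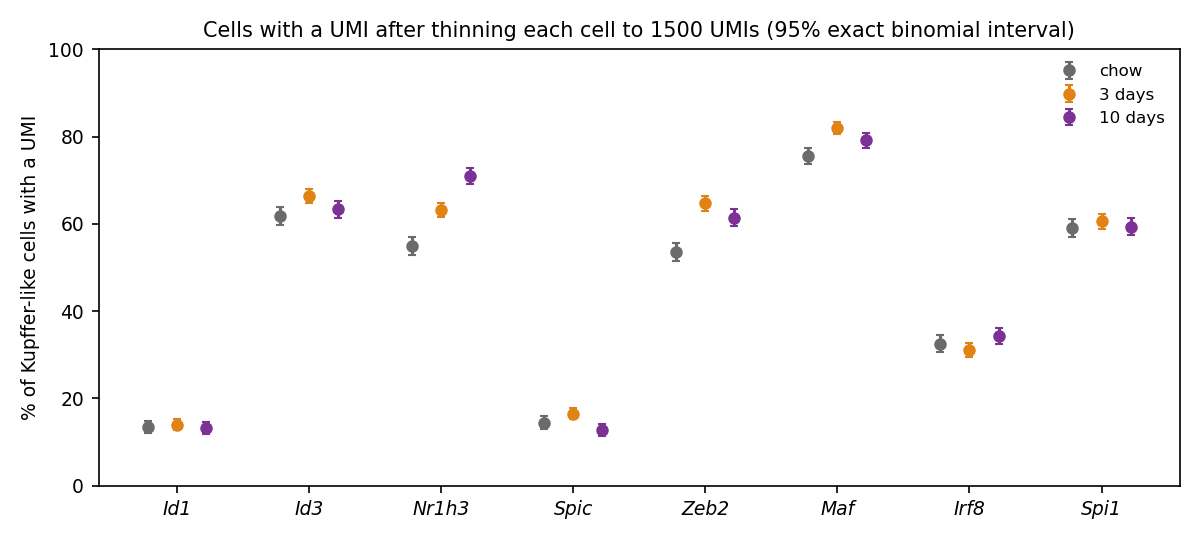
Share of Kupffer-like cells with at least 1 UMI of each gene after thinning to 1500 UMIs, for chow, 3 days and 10 days, with exact binomial 95% intervals. Nr1h3 spreads most between libraries (55.0%, 63.2% and 71.1%), while Spi1, Id1, Irf8 and Spic lie within 4 percentage points.

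Next, the 8 genes were compared between Kupffer-like cells and the other cells that passed the same sort gate, within each library. Transcripts of Kupffer genes were also found in those cells. As a yardstick, 8 abundant Kupffer genes summed in T and NK-like cells to 7.72%, 7.10% and 7.08% of their Kupffer-like level on chow, at 3 days and at 10 days. In endothelial-like cells this carry-over was 29.6%, 27.6% and 25.1%, and in dendritic-like cells 30.1%, 39.8% and 49.7%. Single yardstick genes differed, between 17.8% and 36.1% over the 3 libraries in endothelial-like cells. Since classes came from the same cells, these comparisons are descriptions with no test.

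All 8 genes were higher in Kupffer-like than in T and NK-like cells past 1.5-fold in 3 of 3 libraries, as were 27.2% of 7802 genes. Spic had 2, 0 and 1 UMIs in the T and NK-like cells. At 3 days the counting interval put it at least 9.635-fold higher in Kupffer-like cells, and taking 3 counts as the floor gave 11.9-fold. Levels of Id1, Nr1h3, Spic, Zeb2 and Spi1 in T and NK-like cells were at or below the carry-over in 3 of 3 libraries within counting error. For Spi1, Kupffer-like cells had 627, 627 and 640 CPM and T and NK-like cells 58.5, 21.4 and 31.8 CPM. Maf and Irf8 were above it in 3 of 3. Maf had 164, 214 and 294 CPM in T and NK-like cells, where carry-over would give 74.9, 86.5 and 79.1 CPM, and Irf8 had 87.8, 104 and 58.7 CPM, where it would give 20.2, 18.0 and 19.7 CPM.

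Liver endothelial-like cells carried more of 3 of these genes than Kupffer-like cells did. Maf was 970, 1217 and 1117 CPM in Kupffer-like cells and 1953, 2879 and 2115 CPM in endothelial-like cells on chow, at 3 days and at 10 days. Id3 was 715, 790 and 739 CPM in Kupffer-like cells and 1715, 1429 and 1535 CPM in endothelial-like cells. Both were past 1.5-fold higher in endothelial-like cells in 3 of 3 libraries, as were 17.3% of 8291 genes. Under TMM scaling 1 of these 2 stayed past that limit in every library. Id1 was 108, 115 and 99.3 CPM in Kupffer-like cells and 251, 197 and 122 CPM in endothelial-like cells, and at 10 days the interval of the ratio (0.554 to 1.24) took in 1. Endothelial markers in the Kupffer-like cells summed to 261, 272 and 292 CPM over 18 genes, with none at 0, and their part in the Id1, Id3 and Maf levels there was not tested.

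Nr1h3, Spic, Spi1 and Irf8 were past 1.5-fold higher in Kupffer-like than in endothelial-like cells in 3 of 3 libraries, as were 11.1% of genes. Nr1h3 was 558, 705 and 872 CPM in Kupffer-like cells and 163, 187 and 281 CPM in endothelial-like cells, where carry-over would give 165, 194 and 219 CPM. The counting intervals of Nr1h3, Spic and Spi1 in endothelial-like cells took in the carry-over level in 3 of 3 libraries. Zeb2 lay between, at 531, 682 and 674 CPM in Kupffer-like cells and 371, 407 and 272 CPM in endothelial-like cells.

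The dendritic-like cluster was led by Cd209a and Xcr1 but also by the monocyte markers Ccr2 and S100a4, and it may mix cell types. Irf8 was 262, 253 and 278 CPM in Kupffer-like cells and 761, 876 and 488 CPM in dendritic-like cells on chow, at 3 days and at 10 days. Kupffer-like cells were past 1.5-fold lower in 3 of 3 libraries, as were 6.91% of 7581 genes. This call was lost when cells were weighted equally. At 1500 UMIs, Irf8 was seen in 32.6%, 31.2% and 34.3% of Kupffer-like cells and in 42.4%, 50.0% and 20.4% of dendritic-like cells. At 10 days the order of the shares was thus reversed, but the dendritic-like share came from 49 cells. Its interval (10.2% to 34.3%) overlapped that of Kupffer-like cells (32.4% to 36.2%). Spi1 was 557, 542 and 564 CPM in dendritic-like cells, and the Kupffer-like over dendritic-like ratios of 1.13, 1.16 and 1.13 lay near 1 in every library. Id1, Id3 and Zeb2 were not past 1.5-fold in every library. Their ratios were 1.46, 1.96 and 1.08 for Id1, 1.96, 1.20 and 0.992 for Id3, and 1.87, 2.85 and 1.45 for Zeb2. Nr1h3, Spic and Maf were past 1.5-fold higher in Kupffer-like cells in 3 of 3, as were 13.3% of genes, and their dendritic-like levels were not above the carry-over in any library. For single yardstick genes, however, carry-over in this class ran between 24.4% and 72.9% at 3 days and reached 110% at 10 days. The dendritic-like values of both ethanol libraries thus rest on an uneven correction.

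**Figure D4:**
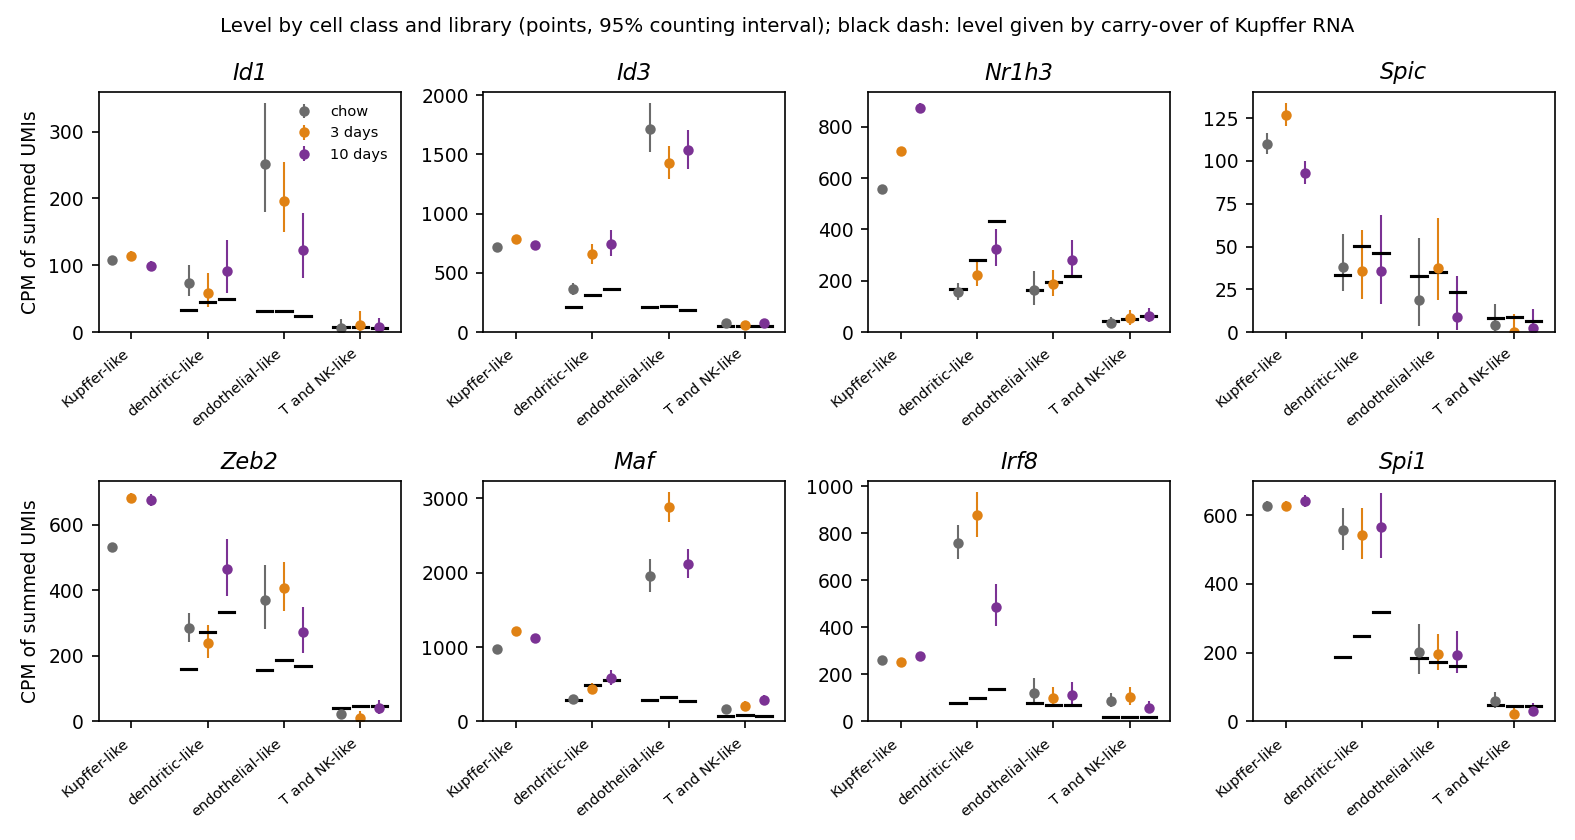
Level of each gene, in CPM, in Kupffer-like, dendritic-like, endothelial-like and T and NK-like cells, with 1 point per library and 95% counting intervals. Black dashes give the level that carry-over of Kupffer RNA would produce. Nr1h3 and Spic are high in Kupffer-like cells and near the dashes or below them elsewhere. Id3 and Maf are highest in endothelial-like cells, and the summed CPM of Irf8 is highest in dendritic-like cells. At 10 days the share of cells with an Irf8 UMI at equal depth was 34.3% in Kupffer-like and 20.4% in dendritic-like cells. The intervals of these shares overlapped.

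The libraries also held 20, 9 and 12 B and plasma-like cells and 7, 8 and 18 hepatocyte-like cells on chow, at 3 days and at 10 days, too few for a comparison of levels.

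Among the Kupffer-like clusters, Spic and Irf8 stood out in a small one led by the chemokine genes Cxcl10 and Cxcl9 (number 6), with 33, 78 and 42 cells on chow, at 3 days and at 10 days. Spic was 400, 293 and 222 CPM there, against 106, 123 and 90.7 CPM in all other Kupffer-like cells. That is 3.77, 2.38 and 2.45 times as much, from 64, 84 and 35 UMIs. Irf8 was 718, 422 and 451 CPM there, against 256, 249 and 275 CPM, or 2.81, 1.69 and 1.64 times as much. Maf was lower in that cluster in all 3 libraries, at 631, 875 and 851 CPM against 975, 1226 and 1122 CPM. Id3 was 1.27, 1.24 and 1.29 times the level of the other cells.

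In the proliferating cluster (number 10, 48, 74 and 60 cells), Nr1h3 and Zeb2 were below the other Kupffer-like cells beyond counting error in 3 of 3 libraries. Id3, Spic, Irf8 and Spi1 were lower there too in 3 of 3, but not beyond counting error in every library. Maf was 1.02, 0.879 and 0.931 times the level of the other cells. Id1 was 1.00, 1.07 and 1.61 times (1.16 to 2.19 at 10 days). The listed Kupffer markers were also lower in this cluster, with a median of 0.790 times their level in all kept cells. Whether the lower factor levels go beyond that was not tested. Nr1h3 was 470, 566 and 728 CPM there, against 560, 709 and 876 CPM. Zeb2 was 423, 583 and 559 CPM, against 533, 685 and 678 CPM. In the deep cluster (number 2), Nr1h3 was 0.686, 0.688 and 0.703 times the level of the other Kupffer-like cells, and Zeb2 0.804, 0.745 and 0.802 times. Leaving out the proliferating cluster and the chemokine-led one, the Nr1h3 ratio of 10 days over chow was 1.57.

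**Figure D5:**
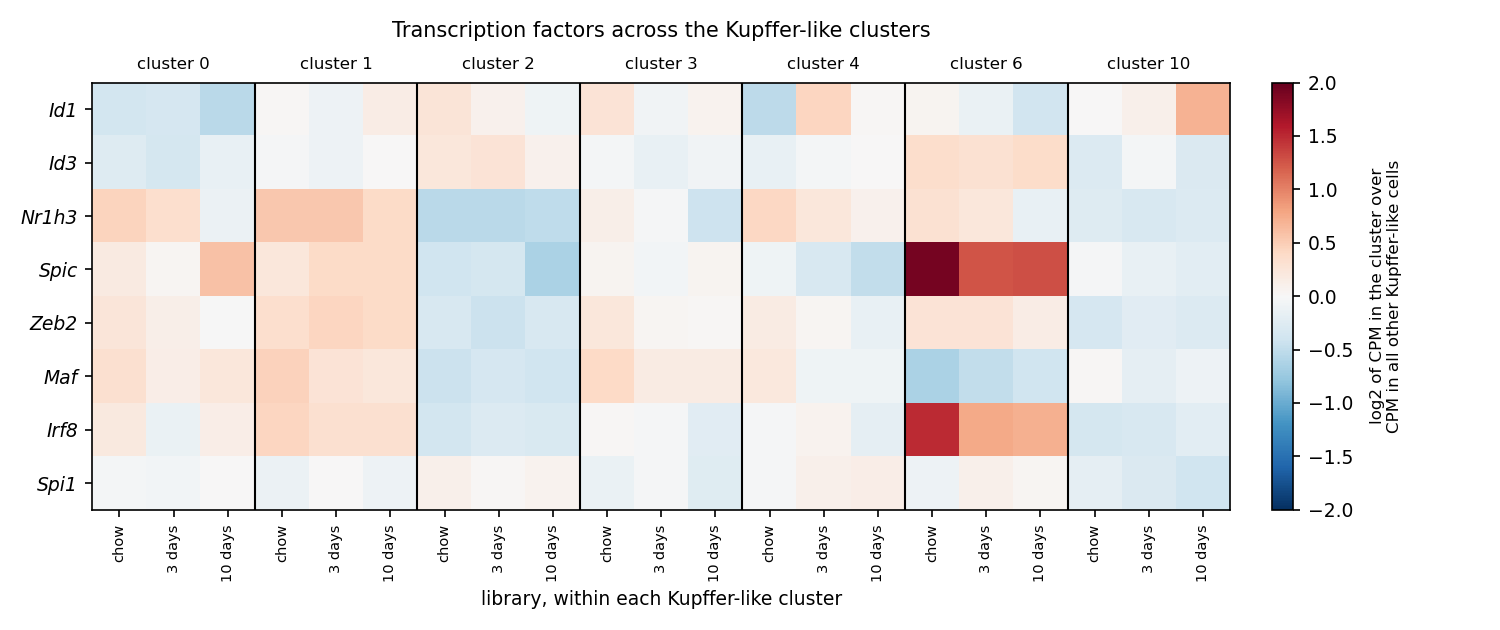
Log2 of the CPM of each gene in a Kupffer-like cluster over that in all other Kupffer-like cells of the same library, for the 7 clusters with chow, 3 days and 10 days side by side. Red is higher and blue lower in the cluster. Spic and Irf8 are darkest red in cluster 6 (3.77 and 2.81 times on chow), and Nr1h3 is blue in cluster 2 in all 3 libraries.

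Genes tied to the same factors were counted next, on lists to be read against all 7507 genes, of which 3.37% were higher and 1.29% lower for 3 days over chow, and 4.02% higher and 2.44% lower for 10 days over chow. Of 20 partners, corepressors and targets of LXR, 3 were past 1.5-fold higher for 3 days over chow and 4 for 10 days over chow, and 0 were lower. The lipid droplet coat gene Plin2 had 229 CPM at 3 days and 278 CPM at 10 days, against 104 CPM on chow, ratios of 2.21 and 2.69. Lpl, which encodes lipoprotein lipase, had 2601 CPM at 10 days, against 1515 CPM on chow, a ratio of 1.72. The lowest ratios at 10 days were those of a pair of classical LXR targets. Apoe, encoding apolipoprotein E, had 8600 CPM at 10 days, against 12735 CPM on chow (0.675), and Srebf1, the lipogenic regulator, had 16.7 CPM, against 23.6 CPM (0.709). The list's median log2 ratio was 0.13 at 3 days and 0.18 at 10 days over chow, beside 0.04 and 0.08 for all genes.

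Of 16 haem and iron genes linked to Spic, 3 were past 1.5-fold higher and 1 lower for 3 days over chow, and 1 higher and 3 lower for 10 days over chow (all genes: 3.37% and 1.29%, then 4.02% and 2.44%). At 3 days, Cd163, the haemoglobin scavenger receptor, had 1220 CPM, against 553 CPM on chow (2.21). Vcam1, a target of SPI-C in the mouse spleen, had 992 CPM at 3 days, against 324 CPM on chow (3.06), and 256 CPM at 10 days. Hmox1, which encodes haem oxygenase, had 2760 CPM at 10 days, against 1603 CPM on chow (1.72). Vcam1 and Cd163 lead cluster 3, which held 123 cells on chow, 1464 at 3 days and 109 at 10 days. The list's median log2 ratio was -0.08 at 3 days and -0.20 at 10 days over chow, beside 0.04 and 0.08 for all genes. The transferrin receptor gene Tfrc had 28.1 CPM at 3 days and 33.2 CPM at 10 days, against 73.4 CPM on chow, ratios of 0.383 and 0.452.

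Of 24 measured myeloid genes linked to PU.1 and IRF8, 0 were past 1.5-fold higher and 2 lower for 3 days over chow, and 1 higher and 4 lower for 10 days over chow (all genes: 3.37% and 1.29%, then 4.02% and 2.44%). Ciita, the master regulator of MHC class II, had 8.17 CPM at 3 days and 8.59 CPM at 10 days, against 14.4 CPM on chow. Lyz2, encoding lysozyme, had 2795 CPM at 10 days, against 4555 CPM on chow (0.613). Toll-like receptor gene Tlr4 had 73.2 CPM at 10 days, against 47.2 CPM on chow (1.55). The median log2 ratio of this list was -0.12 at 3 days and -0.05 at 10 days over chow, beside 0.04 and 0.08 for all genes.

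None of 17 measured genes of the BMP and TGF-beta pathway was past 1.5-fold either way in any comparison. Of all genes, 4.66% were for 3 days over chow, 6.46% for 10 days over chow and 4.33% for 10 days over 3 days. In a list this short, 0 is near those shares. Bmpr2, a BMP receptor, was nearest, at 87.4 CPM at 10 days, against 58.5 CPM on chow (1.49), followed by the signal carrier Smad1, at 107 CPM against 75.9 CPM (1.41). Likewise, 0 of 6 measured ID and E protein genes were past 1.5-fold, to be read beside the same shares of all genes. Tcf4, an E protein gene, had 142 CPM at 3 days, against 108 CPM on chow (1.31), and 104 CPM at 10 days. Median log2 ratios over chow were 0.11 and 0.19 for the BMP and TGF-beta list at 3 and 10 days, and 0.14 and 0.01 for the ID and E protein list, beside 0.04 and 0.08 for all genes.

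Among 27 other measured macrophage regulators, 3 were past 1.5-fold higher and 0 lower for 3 days over chow, and 4 higher and 2 lower for 10 days over chow (all genes: 3.37% and 1.29%, then 4.02% and 2.44%). Rara, a retinoic acid receptor gene, had 60.3 CPM at 3 days and 88.2 CPM at 10 days, against 30.1 CPM on chow, ratios of 2.00 and 2.93. Irf7, an interferon regulatory factor gene, had 271 CPM at 10 days, against 472 CPM on chow, a ratio of 0.574. Of 22 measured Kupffer surface and secreted genes, 0 were past 1.5-fold at 3 days over chow and 2 were higher at 10 days, the scavenger receptor gene Marco (607 CPM, against 339 CPM on chow) and the GDNF-family receptor gene Gfra2 (77.6 CPM, against 38.2 CPM). Median log2 ratios over chow were 0.14 and 0.19 for the other regulators at 3 and 10 days, and -0.02 and 0.21 for the surface and secreted genes, beside 0.04 and 0.08 for all genes.

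Genes most like each of the 8 were named by the correlation of log2(CPM + 1) over 12 points, 4 classes in 3 libraries, among 4274 genes. The points share libraries and depth, and r is given as a description. Spi1 was closest to Pld4 and Ctss (r = 0.994 and 0.992), Zeb2 to Rhobtb1 and Il13ra1 (0.992 and 0.986), and Nr1h3 to Fcna and Acp2 (0.988 and 0.986). Acp2 begins 50 bases from the outermost end of the Nr1h3 gene span on the opposite strand, and Spi1 lies 68304 bases from Nr1h3 on the same chromosome. Id3 was closest to F11r and Fcgrt (0.989 for both), Id1 to Sept10 and Hes1 (0.986 and 0.983), Spic to Por and Siglec1 (0.985 and 0.981), and Maf to Fkbp9 and Txnip (0.982 and 0.979). Irf8 had the weakest match, with Syngr2 and Ppt1 (0.964 for both).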

How the data were processed

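RNA of single sorted liver cells was measured in 3 mice. The deposited matrices hold raw UMI counts per gene and barcode for all 737280 listed barcodes, with no normalization. The submitters' processing notes name Cell Ranger 2.2.0, GRCm38 and mm10. The counting settings, annotation release and use of strand are not given in the sources used here. No column of another sample was present.

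Cells were filtered as stated in the report. Clusters came from scanpy 1.11.5 (2000 variable genes, 30 components, 15 neighbours, Leiden at 0.6) and were named from marker lists; a class name needed 3 markers among the 25 leading genes. The doublet caller Scrublet marked 0% of cells, so it had not worked, and removing the 4% of cells with the highest scores was tried instead. Counts were summed per class and library, divided by the class total and given as CPM, with exact Poisson intervals, exact conditional binomial intervals for ratios (no pseudocount) and Clopper-Pearson intervals for shares, all at 95%. Their precision follows from the counts, and PCR and cell sampling are not in them. With 1 mouse per diet no p-value was computed. Fold counts were checked on simulated Poisson counts around the chow profile. These hold no variation between mice, cells or clusters, so the check covers the calculation and not the reliability of the real calls. edgeR 4.0.16 gave TMM factors only. Gene positions are from GENCODE vM21 on GRCm38, and 5 of the 8 genes matched a RefSeq promoter on GRCm38.p6 (Id3's window is exon and is not printed).

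The 8 genes and all lists were chosen with earlier results of these data known. Besides the 8 genes, the text names the 2 highest and 2 lowest ratios of a list, or some of them, and the 2 genes most like each of the 8. The contrasts were 3 days over chow, 10 days over chow, 10 days over 3 days, and Kupffer-like over each class. Alternatives changed the cell filters, doublets, cluster resolution, weighting, scaling, pseudocount, free RNA and the CPM minimum.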

Additional observations from a re-analysis of the deposited data

Results flagged for a closer look

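For 4 values the direction between diets was opposite in another class and in Kupffer-like cells, with both counting intervals on opposite sides of 1. The difference itself was not tested, since each diet had 1 library. Irf8 for 10 days over chow was 0.642 in dendritic-like cells and 1.06 in Kupffer-like cells, and for 10 days over 3 days 0.558 in dendritic-like cells and 1.10 in Kupffer-like cells. The dendritic-like values rest on 122 UMIs at 10 days, 344 at 3 days and 440 on chow. Maf for 10 days over 3 days was 1.34 in dendritic-like cells and 0.918 in Kupffer-like cells. Id3 for 3 days over chow was 0.834 in endothelial-like cells and 1.10 in Kupffer-like cells. The carry-over of Kupffer genes in dendritic-like cells was 49.7% at 10 days, 39.8% at 3 days and 30.1% on chow, and its part in these values was not tested.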

How the results depend on the processing

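Of 384 recomputed ratios of single members between diets, 323 stayed inside the counting interval, 53 left it and 8 turned round. A ratio was counted as turned round only where its main counting interval left out 1. Some ratios with an interval that took in 1 also crossed 1. Spi1 kept its direction in 12 of 16 alternatives for 3 days over chow, 15 for 10 days over chow and 14 for 10 days over 3 days. Id3 for 10 days over chow kept it in 15 of 16. The 8 counted as turned round were Spic for 3 days over chow with clusters weighted equally (0.960), Id1 for 10 days over chow with 5% mitochondrial UMIs (1.04) and without the deepest and shallowest clusters (1.02), Maf for 10 days over chow at 2000 to 4000 UMIs (0.995) and without those clusters (0.999), and Irf8 for 10 days over chow with clusters weighted equally (0.882), at 2000 to 4000 UMIs (0.940) and without those clusters (0.912). The depth windows and cluster removals were chosen after seeing the data. The alternative with no pseudocount equals the reported ratio for every member, so it could not leave the interval. The limit of 5% mitochondrial UMIs kept 1039, 1592 and 348 Kupffer-like cells on chow, at 3 days and at 10 days. Nr1h3 stayed above 1 in all 16 alternatives for 10 days over chow but was 1.5 or less in 5, so that 0 members were past 1.5-fold: 1.47 (5% mitochondrial UMIs), 1.25 (clusters weighted equally), 1.498 (TMM), 1.30 (2000 to 4000 UMIs) and 1.27 (without those clusters).

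Over all genes, the higher and lower calls for 3 days over chow (253 and 97) were 78 and 23 at a minimum of 50 CPM, 697 and 530 at 1 CPM, and 31 and 17 at 2-fold. For 10 days over chow (302 and 183) they were 133 and 61, 780 and 687, and 49 and 22. For 10 days over 3 days (178 and 147) they were 54 and 36, 618 and 661, and 30 and 30. A higher minimum leaves fewer genes. Higher calls were 72.3%, 62.3% and 54.8% of all calls, and with TMM 63.5%, 44.6% and 48.0%.

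Against other classes, TMM left 1 member past 1.5-fold lower in Kupffer-like than in endothelial-like cells, not 2. Resolution 0.3 gave 6 members higher than in dendritic-like cells, not 3, and weighting cells equally left 0 lower, not 1. Thinning to 1000 UMIs left 1 member seen in at least 50% of cells in every library, not 5, as fewer UMIs were drawn. The median log2 ratio of the haem and iron list for 3 days over chow was 0.057 at a minimum of 50 CPM, not -0.08. The cause of the other moves was not tested. No paired analysis was possible because each diet had 1 mouse, and for the same reason no replicate could be left out.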

Other observations

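In barcodes with at most 100 UMIs, which were not kept as cells, Id1 and Id3 were above their Kupffer-like level in 3 of 3 libraries. Id1 was 151, 143 and 143 CPM there on chow, at 3 days and at 10 days, and 108, 115 and 99.3 CPM in Kupffer-like cells. Id3 was 883, 1003 and 838 CPM there. Maf was lower there than in Kupffer-like cells, at 560, 626 and 616 CPM, and so was Zeb2, at 327, 390 and 393 CPM. Nr1h3 was near its Kupffer-like level, at 591, 745 and 865 CPM, with chow lowest and 10 days highest as in the cells.

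Nr1h3 in endothelial-like cells was 163, 187 and 281 CPM on chow, at 3 days and at 10 days, where carry-over of Kupffer RNA would give 165, 194 and 219 CPM, and in dendritic-like cells 157, 224 and 324 CPM, where it would give 168, 280 and 433 CPM. None of the 6 values was above the carry-over beyond counting error. In dendritic-like cells the 3-day and 10-day values lay below it beyond counting error. The part of carry-over in the differences between these libraries was not tested. Id1 in endothelial-like cells was 251, 197 and 122 CPM, where carry-over would give 32.1, 31.6 and 24.9 CPM, a ratio of 0.487 (0.287 to 0.813) for 10 days over chow from 27 and 40 UMIs.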
